A study of Mus musculus with 2 samples.

Results

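The collagen chains examined here were those that assemble into the collagens of cartilage, types II, IX, X, XI and XXVII. They were taken as the rows of the deposited count table whose gene name was *Col2a1*, *Col9a1*, *Col9a2*, *Col9a3*, *Col10a1*, *Col11a1*, *Col11a2* or *Col27a1*, and 8 of the 24421 rows matched. RNA-Seq had been carried out on 1 library of primary chondrocytes from the rib cartilage of newborn mice and 1 library of primary dermal fibroblasts from the dorsal skin of newborn mice. Both preparations were released with collagenase and received no named treatment, chondrocytes counted as primary within 2 passages, and the labels give neither strain nor the number of animals pooled. The authors had sequenced stranded mRNA libraries and deposited read counts per gene, which summed to 18788599 in chondrocytes and 17563724 in dermal fibroblasts. With a single library on each side, no difference could be set against the spread between cultures and no test was made. Every interval below is a 95% interval for counting error alone, exact Poisson for a level and Clopper-Pearson for a ratio or a share.

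Collagen molecules are 3 chains wound into a triple helix, and in these chains glycine recurs in a fixed triplet rhythm along the helix. Type II collagen, 3 copies of the *Col2a1* product, forms the bulk of the cartilage fibril. Type XI collagen lies within that fibril and is built from the *Col11a1* and *Col11a2* chains together with a *Col2a1* product. Type IX collagen, built from 3 different chains, decorates the fibril surface, type X forms a network around hypertrophic chondrocytes, and type XXVII is a fibrillar collagen of cartilage. Skin fibrils consist mainly of types I and III, with type V, a close relative of type XI, inside them.

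All 8 chains were over 2-fold higher in chondrocytes, and in each case the lower bound of the interval exceeded 10-fold. Among all 17718 genes with a count, 10.7% passed the same 2-fold threshold toward chondrocytes and 13.9% toward dermal fibroblasts. The median log2 fold of the 8 chains was 11.47, against 0.04 over all genes with a count. When the 11162 genes with at least 100 counts in 1 library were ordered by fold, 6 of the 8 chains stood among the first 20. *Col11a1* was at rank 31 and *Col27a1* at rank 100. Folds here compare CPM values (counts per 1000000, with library sizes scaled by TMM factors, the trimmed mean of M-values, which set most genes level), with counts under 3 set to 3. In RNA from whole cultures, fewer cells of a type and less RNA per cell cannot be told apart.

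**Figure D1:**
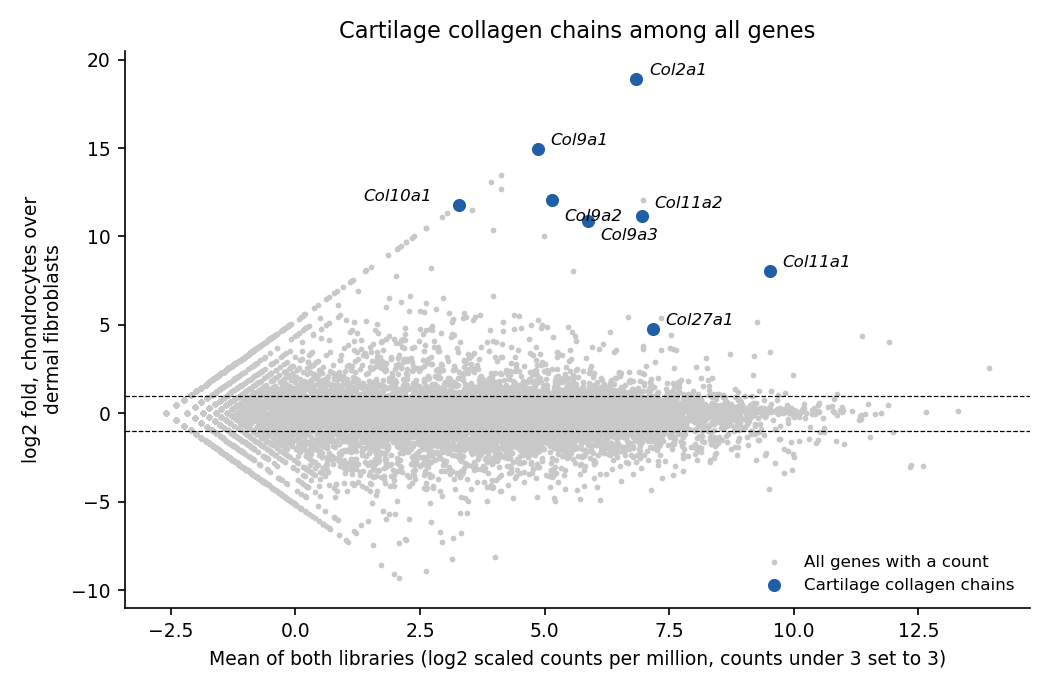
Each point is 1 gene with a count in at least 1 library, with the mean of both libraries on the x axis (log2 scaled CPM) and the log2 fold of chondrocytes over dermal fibroblasts on the y axis, counts under 3 set to 3. The 8 cartilage collagen chains, in blue, lie above the dashed lines of a 2-fold difference, with *Col2a1* highest and *Col27a1* lowest.

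*Col2a1* (97975602 to 98004724 on chromosome 15 of GRCm38) was counted 1447098 times in chondrocytes and 0 times in dermal fibroblasts. It was the most abundant gene of the chondrocyte library and took 7.70% of its counts. The level was 80732 scaled CPM (interval 80601 to 80864) in chondrocytes, and the 0 in dermal fibroblasts had an interval up to 0.200, with 3 counts standing for 0.163. With the 0 set to that floor of 3 counts, the gene was 495432-fold higher in chondrocytes. The lower bound of the counting interval was 402912-fold, and the gene had the largest fold among the 11162 genes.

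The type IX chains were abundant in chondrocytes and nearly absent from dermal fibroblasts. *Col9a1* (chromosome 1, 24177589 to 24252738) was counted 92699 times in chondrocytes and 1 time in dermal fibroblasts, a ratio of 95210 with an interval from 17088 to 3.76e+06. With the 1 count set to 3, as in the ranks and the median above, its fold was 31737. *Col9a2* (chromosome 4, 121039566 to 121055325), at 41496 against 10 counts, was higher 4262-fold (interval 2317 to 8888). *Col9a3* (chromosome 2, 180598102 to 180622192) gave 44950 against 25 counts, a 1847-fold difference (interval 1251 to 2854). In scaled CPM the 3 chains were at 5172, 2315 and 2508 in chondrocytes and at 0.0543, 0.543 and 1.36 in dermal fibroblasts. The dermal level of *Col9a1*, from 1 count, had an interval from 0.00138 to 0.303, and that of *Col9a3* one from 0.879 to 2.005.

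The type XI chains had the most counts after *Col2a1* among the 8 chains, and one of them kept a clear level in skin cells. *Col11a1* (chromosome 3, 114030479 to 114220756) had 211841 counts in chondrocytes, where it ranked 5 among all genes, and still had 839 in dermal fibroblasts. The corresponding levels were 11818 (interval 11768 to 11869) and 45.6 (interval 42.5 to 48.8) scaled CPM, a 259-fold difference with an interval from 242 to 278. *Col11a2* (chromosome 17, 34038919 to 34066684) went from 106437 counts in chondrocytes to 48 in dermal fibroblasts and was 2278-fold higher (interval 1718 to 3089). The fold of *Col11a2* therefore exceeded that of its partner chain beyond counting error.

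*Col10a1* and *Col27a1* were the lowest of the 8 chains in chondrocytes. *Col10a1* (chromosome 10, 34389981 to 34397085), the chain of the hypertrophic matrix, was counted 10378 times in chondrocytes and 3 times in dermal fibroblasts, a ratio of 3553 with an interval from 1215 to 17232. *Col27a1* (chromosome 4, 63214009 to 63334991) gave 13478 against 510 counts, a 27.1-fold difference (interval 24.8 to 29.7). The levels of *Col27a1* were 752 and 27.7 scaled CPM. Of the 8 chains it had the smallest fold, and its interval did not meet that of *Col11a1*, the next smallest. The interval of *Col10a1* included the folds of *Col9a2*, *Col9a3* and *Col11a2*, so its place among these is not resolved by the counts.

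**Figure D2:**
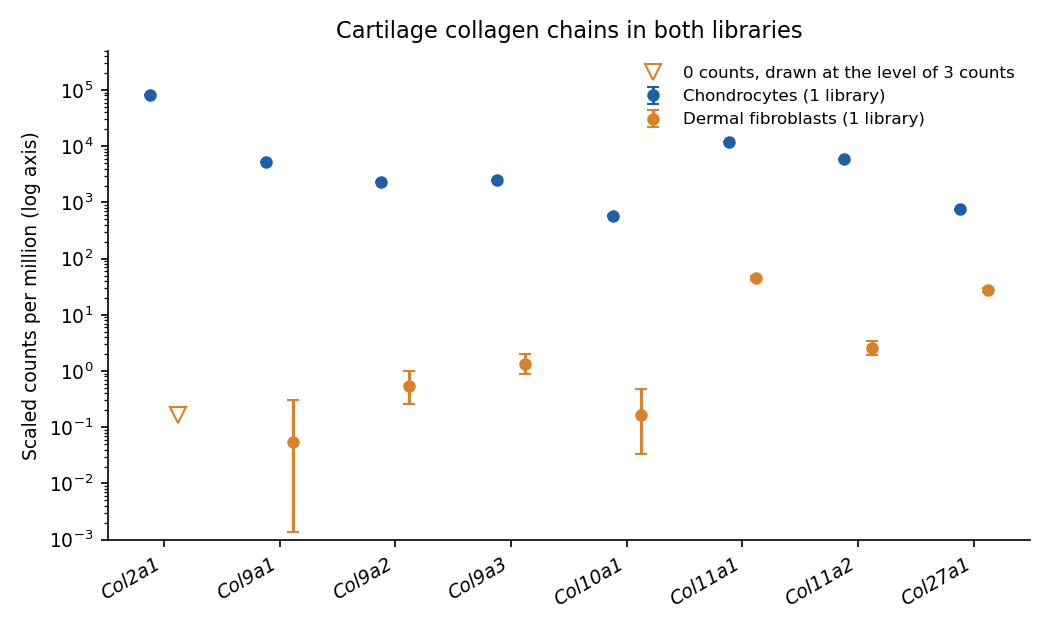
Level of each cartilage collagen chain in the chondrocyte library (blue) and the dermal fibroblast library (orange), in scaled CPM on a log axis, with bars for the 95% Poisson interval. *Col2a1* had 0 counts in dermal fibroblasts and is drawn as an open triangle at the level of 3 counts (0.163), while *Col11a1* (45.6) and *Col27a1* (27.7) were the highest chains there.

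The bases just before the annotated start of 4 of these genes are shown because the chains were high together in 1 cell type, and they allow the start regions to be compared. The sequences are from RefSeq on GRCm38.p6, plus strand, 5′ to 3′, and end at the last base before the gene. Capitals mark a match to 1 of 4 short motifs searched on both strands within 250 bases before each start site. The SOX core was searched as ACAATG, the TATA box as TATAAA, the CCAAT box by these letters and the GC box as GGGCGG. A match on the minus strand stands in the run as its reverse complement, as for the first GC box of *Col9a2* and the CCAAT box of *Col11a1*. For *Col9a1* and *Col11a1* the run stops 21 and 61 bases before the start site searched. Another GC box of *Col11a1*, at position -19 from that start site, is therefore not printed.
*Col9a1*, chr1:24177360-24177588: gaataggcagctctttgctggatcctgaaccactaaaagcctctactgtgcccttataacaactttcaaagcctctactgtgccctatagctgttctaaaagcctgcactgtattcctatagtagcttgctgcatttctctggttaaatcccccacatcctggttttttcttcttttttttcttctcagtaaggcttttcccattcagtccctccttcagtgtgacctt
*Col9a2*, chr4:121039316-121039565: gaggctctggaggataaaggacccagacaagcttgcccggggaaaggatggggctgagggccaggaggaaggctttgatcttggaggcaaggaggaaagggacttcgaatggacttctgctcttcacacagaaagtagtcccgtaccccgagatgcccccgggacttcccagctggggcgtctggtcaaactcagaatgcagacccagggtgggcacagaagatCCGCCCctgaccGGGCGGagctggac
*Col10a1*, chr10:34389731-34389980: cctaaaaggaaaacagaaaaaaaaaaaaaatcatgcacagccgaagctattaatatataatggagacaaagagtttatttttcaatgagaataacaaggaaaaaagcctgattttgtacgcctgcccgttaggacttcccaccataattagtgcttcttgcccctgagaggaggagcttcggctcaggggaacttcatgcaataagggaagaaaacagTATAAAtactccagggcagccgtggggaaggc
*Col11a1*, chr3:114030290-114030478: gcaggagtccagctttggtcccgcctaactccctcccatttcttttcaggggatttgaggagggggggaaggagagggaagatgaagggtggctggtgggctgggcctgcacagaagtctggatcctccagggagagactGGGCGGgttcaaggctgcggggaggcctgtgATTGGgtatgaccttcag

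Windows were at hand for 6 of the 8 genes, with 2 start sites for *Col9a1*, so 7 windows were compared with 32851 windows of 27025 genes. TATAAA was found in 2 of the 7, at position -32 from the start site of *Col10a1* and at -143 of *Col11a2*, and in 12.4% of all windows. GGGCGG was found in 4 of the 7 (*Col9a2*, *Col11a1*, *Col11a2* and *Col27a1*) and in 32.7% of all windows. CCAAT was found in 2 of the 7, before the second start site of *Col9a1* and before *Col11a1*, and in 33.8% of all windows. ACAATG was found in 0 of the 7 and in 10.7% of all windows, which says only that these letters are not in these stretches. The start regions also differed in base composition. The ratio of observed to expected CpG was 0 in both windows of *Col9a1*, 0.327 for *Col11a1*, 0.404 for *Col9a2*, 0.467 for *Col10a1*, 0.682 for *Col11a2* and 0.710 for *Col27a1*, with a median of 0.373 over all windows. No motif of the 4 was shared by all 7 windows.

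Levels of different genes can be compared only per length, so counts were divided by the exon length of the transcript with the longest coding sequence. On this scale *Col2a1* had 283522 counts per kilobase in chondrocytes, followed by *Col11a1* with 27630, *Col9a1* with 24178, *Col11a2* with 18154, *Col9a3* with 15778 and *Col9a2* with 14192. *Col10a1* (3316) and *Col27a1* (1771) were lower. Each step of this order exceeded counting error at this length. With coding length *Col9a3* stood above *Col11a2*, since *Col2a1* was then 14.8 times *Col9a3* and 15.9 times *Col11a2*. In dermal fibroblasts the order per kilobase was *Col11a1* (109), *Col27a1* (67.0), *Col9a3* (8.78), *Col11a2* (8.19), *Col9a2* (3.42), *Col10a1* (0.958) and *Col9a1* (0.261), with *Col2a1* at 0. *Col11a1* and *Col27a1* differed there beyond counting error, while the chains below them rest on 48 counts or fewer, and *Col9a3* and *Col11a2* did not differ beyond it.

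In the type IX molecule the 3 chains are used in equal number. Within the chondrocyte library the ratio of *Col9a1* to *Col9a2* was 1.70 per length (interval 1.68 to 1.72), that of *Col9a1* to *Col9a3* was 1.53 (interval 1.52 to 1.55), and that of *Col9a2* to *Col9a3* was 0.899 (interval 0.888 to 0.912). The transcript of *Col9a1* was therefore the most abundant of the 3 per length, and those of *Col9a2* and *Col9a3* lay close together. The order of the last 2 depended on the length used, since with all annotated exons the ratio of *Col9a2* to *Col9a3* was 1.15. *Col9a1* stayed above both with coding length, with all exons and with no length correction. In dermal fibroblasts the order was turned, with a ratio of *Col9a1* to *Col9a3* of 0.0297 (interval 0.000724 to 0.182) from 1 count and 25 counts. There *Col9a2* to *Col9a3* was 0.390 (interval 0.167 to 0.840), below its value in chondrocytes. The predicted proteins had 921, 688 and 681 codons, and the longest uninterrupted run of glycine triplets was 113 triplets in each of the 3 chains.

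In type XI collagen the *Col11a1* and *Col11a2* chains are used in equal number, and their transcripts were nearer to balance in chondrocytes than in dermal fibroblasts. The ratio of *Col11a1* to *Col11a2* per length was 1.52 (interval 1.51 to 1.53) in chondrocytes and 13.4 (interval 9.99 to 18.3) in dermal fibroblasts. A length cancels when the same pair is compared between libraries, so this change does not depend on the length chosen. Whether both libraries used the same transcripts of each gene was not tested. *Col2a1*, which supplies the remaining chain, exceeded *Col11a1* by 10.3 times (interval 10.2 to 10.3) and *Col11a2* by 15.6 times (interval 15.5 to 15.7) in chondrocytes and was at 0 in dermal fibroblasts. Relative to the type IX chains, *Col2a1* was 11.7 times *Col9a1*, 19.98 times *Col9a2* and 18.0 times *Col9a3* per length. It was 85.5 times *Col10a1* and 160 times *Col27a1*.

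Type V collagen shares chain structure with type XI, and its chains were higher in the skin cells. *Col5a1* had 19259 and 58294 counts in chondrocytes and dermal fibroblasts, which is 2.95-fold higher in dermal fibroblasts (interval 2.90 to 2.996). *Col5a2*, with 19949 and 69560 counts, was 3.39-fold higher there (interval 3.34 to 3.45), and *Col5a3*, with 1790 and 8927 counts, was 4.86-fold higher (interval 4.61 to 5.11). The balance between type XI and type V chains was turned between the cell types for the 2 pairs compared. *Col11a1* exceeded *Col5a1* 12.1 times per length in chondrocytes (interval 11.9 to 12.2), whereas *Col5a1* exceeded *Col11a1* 63.4 times in dermal fibroblasts (interval 59.2 to 67.9). *Col11a2* stood to *Col5a2* at 6.03 (interval 5.94 to 6.12) in chondrocytes and at 0.000780 (interval 0.000575 to 0.00103) in dermal fibroblasts. By coding length *Col11a2* (5211 bases) was nearer to *Col5a3* (5220) than to *Col5a2* (4494), and its ratio to *Col5a3* was not computed. The ratio of *Col5a1* to *Col5a2* moved far less, from 0.761 (interval 0.746 to 0.776) in chondrocytes to 0.660 (interval 0.653 to 0.668) in dermal fibroblasts. With all annotated exons it was 1.09 and 0.947. The longest run of glycine triplets was 338 in *Col11a1*, *Col11a2*, *Col5a1* and *Col1a1*, 339 in *Col2a1* and 217 in *Col27a1*, a chain known for a shorter, interrupted helix.

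**Figure D3:**
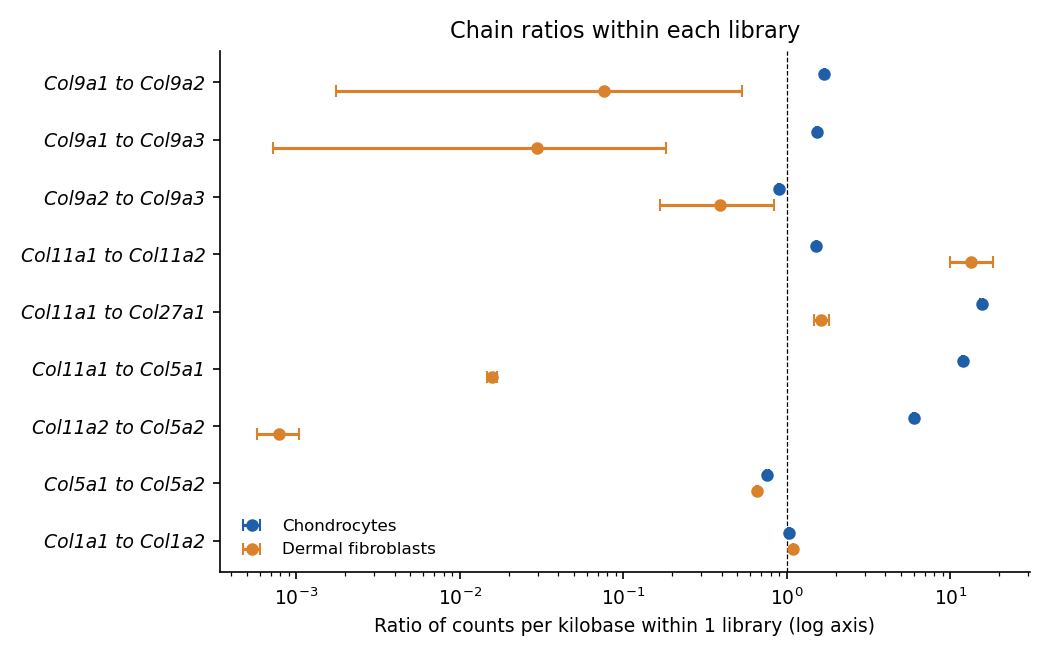
Ratio of counts per kilobase between pairs of collagen chains within the chondrocyte library (blue) and the dermal fibroblast library (orange), on a log axis with 95% Clopper-Pearson intervals, and a dashed line at equal counts. Ratios between type XI and type V chains lie on opposite sides of that line in the 2 libraries (12.1 and 0.0158 for *Col11a1* to *Col5a1*), while *Col1a1* to *Col1a2* was 1.04 and 1.09.

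*Col27a1* followed another proportion than the other chains. *Col11a1* was 15.6 times *Col27a1* per length in chondrocytes (interval 15.3 to 15.9) but 1.63 times in dermal fibroblasts (interval 1.46 to 1.83). Of the counts on the 8 chains in chondrocytes, *Col2a1* held 73.5%, *Col11a1* 10.8% and *Col27a1* 0.685% (interval 0.673 to 0.696). In dermal fibroblasts *Col11a1* held 58.4% (interval 55.8 to 61.0) and *Col27a1* 35.5% (interval 33.0 to 38.1) of 1436 counts, and *Col2a1* with 0 counts had an interval up to 0.257%. The proportions of the 8 chains thus differed between the 2 libraries. If the other chains had stood to *Col11a1* as they did in chondrocytes, 839 counts of *Col11a1* would have come with 5731 of *Col2a1*, 367 of *Col9a1* and 422 of *Col11a2*, where 0, 1 and 48 were counted. For *Col27a1* the same proportion gives 53.4 counts, where 510 were counted. *Col11a1* had the most dermal counts of the 8 chains, and another reference chain would give other numbers. Where the dermal counts came from was not tested.

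The collagen transcripts of the 2 cell types were made up of different chains. All 44 collagen chains together held 12.2% of all counts in chondrocytes and 7.60% in dermal fibroblasts. The 8 cartilage chains held 86.0% of collagen counts in chondrocytes (interval 85.98 to 86.07) and 0.108% in dermal fibroblasts (interval 0.102 to 0.113). Of the 36 other chains, 6 passed 2-fold toward chondrocytes and 20 toward dermal fibroblasts, with a median log2 fold of -1.52. *Col1a1*, *Col1a2* and *Col3a1*, the chains of the main skin fibrils, had 39143, 34091 and 32090 counts in chondrocytes and 322379, 265777 and 273385 in dermal fibroblasts. They were 8.02-fold, 7.59-fold and 8.29-fold higher in dermal fibroblasts. The ratio of *Col1a1* to *Col1a2* per length was 1.04 in chondrocytes and 1.09 in dermal fibroblasts, but 2.12 and 2.24 with all annotated exons. *Col2a1* exceeded *Col1a1* 43.0 times per length in chondrocytes (interval 42.5 to 43.4). With counts under 3 set to 3, the largest fold toward chondrocytes outside the 8 chains was that of *Col8a2*, with 505 counts against 31 (16.7-fold, interval 11.6 to 24.9). By the plain ratio *Col4a4*, with 26 counts against 1, stood higher at 26.7 (interval 4.39 to 1095). *Col22a1*, with 19 counts against 0, has no finite plain ratio, and its lower bound was 4.79. These other chains were named after their values were seen.

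**Figure D4:**
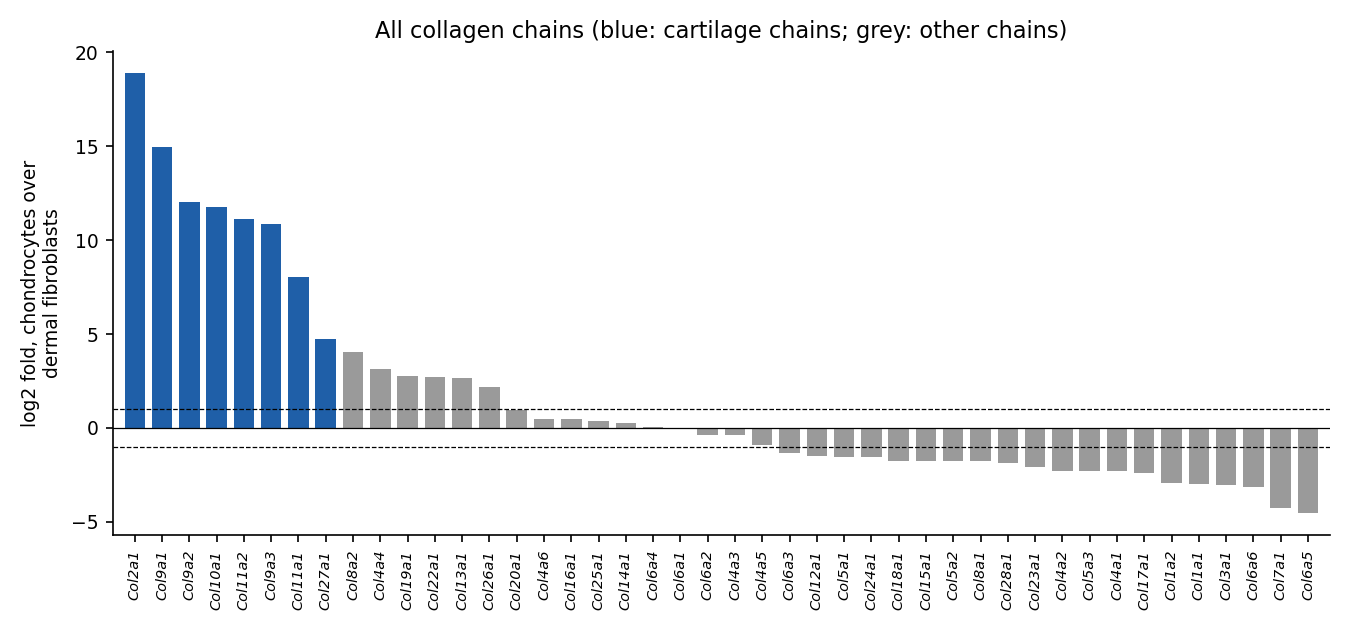
log2 fold of chondrocytes over dermal fibroblasts for each of the 44 collagen chains, ordered by fold, with counts under 3 set to 3 and dashed lines at a 2-fold difference. The 8 cartilage chains (blue bars) take the first 8 places, and 20 of the 36 other chains (grey bars) lie below the lower line.

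Genes known to act with these collagens were read from lists and set against the shares over all genes above. Of 15 regulators of cartilage genes, 9 passed the 2-fold threshold toward chondrocytes and 1 toward dermal fibroblasts. *Sox9*, the factor that activates *Col2a1* in chondrocytes, had 5045 counts against 342 (15.2-fold, interval 13.6 to 17.0). Its partners *Sox6* (2897 against 106) and *Sox5* (957 against 27) were 28.1-fold (interval 23.1 to 34.4) and 36.4-fold higher (interval 24.9 to 55.5). *Pth1r*, the receptor for parathyroid hormone-related protein, had 1439 and 1581 counts, a fold of 0.935 with an interval from 0.870 to 1.005. The median log2 fold of this list was 3.81.

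Of 15 matrix proteins that bind or coat cartilage fibrils, 11 passed the 2-fold threshold toward chondrocytes and 3 toward dermal fibroblasts, with a median log2 fold of 9.46. *Acan*, the large aggregating proteoglycan, gave 148105 against 35 counts, a 4346-fold difference (interval 3125 to 6240). *Lect1*, which encodes chondromodulin, gave 33082 against 0 counts. This was 11326-fold more with the 0 set to 3 counts, and 9210-fold at the lower bound of the counting interval. *Bgn*, the small proteoglycan biglycan, went the other way, with 50802 counts against 106591, so that dermal fibroblasts were 2.04-fold higher (interval 2.02 to 2.06).

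The enzymes and chaperones that make procollagen went in both directions. Of 25 such genes, 7 were over 2-fold higher in chondrocytes and 5 in dermal fibroblasts, with a median log2 fold of 0.27. *Serpinh1*, the collagen chaperone HSP47, had 61409 and 44336 counts (1.42-fold, interval 1.41 to 1.44), and *P4hb*, a subunit of prolyl 4-hydroxylase, had 35923 and 27950 (1.32-fold, interval 1.30 to 1.34). *Loxl4*, of the lysyl oxidase family that cross-links collagen, gave 65781 against 1921 counts and was 35.2-fold higher in chondrocytes (interval 33.6 to 36.8). The N-proteinases of fibrillar procollagens, named after their values were seen, differed in direction. *Adamts3* gave 435 against 16 counts and was 27.9-fold higher in chondrocytes (interval 17.0 to 49.3), and *Adamts2* had 1014 against 11798 and was higher in dermal fibroblasts 11.3-fold (interval 10.6 to 12.1). *Adamts14*, with 358 against 688 counts, lay on the dermal side at 1.87-fold (interval 1.64 to 2.13). Among 14 collagen receptors, matrix proteases and their inhibitors, 4 were over 2-fold higher in chondrocytes and 5 in dermal fibroblasts, with a median log2 fold of -0.31. *Timp3*, a protease inhibitor, was 4.46-fold higher in chondrocytes (38352 against 8841 counts), *Mmp14* was 6.35-fold higher in dermal fibroblasts (4317 against 28140), and the integrin subunit *Itgb1* was 1.62-fold higher there (11953 against 19864). *Itga10*, an integrin subunit of cartilage cells named after its values were seen, gave 1907 against 55 counts and was 35.6-fold higher in chondrocytes (interval 27.2 to 47.5).

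Beside *Col10a1*, 6 of 10 genes of hypertrophic chondrocytes were over 2-fold higher in chondrocytes and 0 in dermal fibroblasts, with a median log2 fold of 1.83. *Spp1*, which encodes osteopontin, had 9639 counts against 3413 (2.90-fold, interval 2.79 to 3.02). *Vegfa* had 1869 against 2609 and was higher in dermal fibroblasts 1.36-fold (interval 1.28 to 1.44). The 6 osteoblast markers, some of which hypertrophic cells also express, summed to 32.7 scaled CPM in chondrocytes and 0.923 in dermal fibroblasts, and 5 of the 6 were over 2-fold higher in chondrocytes. *Ibsp* (349 against 1 count), *Sp7* (156 against 13) and *Dmp1* (48 against 1) were the most abundant of them. Their part in the *Col10a1* result was not tested.

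The labels of both libraries were set beside marker lists. Every chondrocyte marker also belongs to the regulators or fibril-binding proteins above, so this list gives no separate check. All 8 chondrocyte markers were over 2-fold higher in chondrocytes, with a summed 14115 scaled CPM against 21.2. *Hapln1* had 25199 counts against 2. In dermal fibroblasts *Matn1*, *Ucma* and *Lect1* were at 0, and *Sox9* held 342 of the 391 counts on this list. Those 391 counts stood beside 839 of *Col11a1* and 510 of *Col27a1* in the same library. Of the 8 dermal fibroblast markers 7 were over 2-fold higher in dermal fibroblasts (35077 against 4615 scaled CPM), *Dcn* among them with 18509 counts against 5247. *Col1a1* and *Col3a1*, already given among the collagens, held 17511 and 14850 of those 35077 scaled CPM. Keratinocyte markers summed to 262 in dermal fibroblasts and 9.04 in chondrocytes, where *Dsg3* was at 0, and 6 of 8 were over 2-fold higher in dermal fibroblasts (*Krt14* 1939 counts against 17, *Krt5* 1693 against 1, *Dsp* 722 against 27). Skeletal muscle markers were present in both libraries at 2119 and 1492 scaled CPM in chondrocytes and dermal fibroblasts, with 5 of 11 over 2-fold higher in chondrocytes (*Actc1* 7288 and 7970 counts, *Myh3* 7784 and 6497, *Acta1* 6259 and 4705). The sums for macrophages (41.8 and 71.4), endothelium (14.1 and 42.4), tendon (18.97 and 14.9) and erythroid cells (0.614 and 0.163) were lower, and their part in the collagen levels was not tested. *Actb* had 45139 and 50469 counts.

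The genes whose fold was nearest the median of the 8 chains, among those with at least 100 counts in 1 library, were *Susd5*, *Epyc*, *Mfi2*, *Acan* and *Ucma*. Their log2 folds were 11.47, 11.30, 11.12, 12.09 and 10.49, from 11077, 7388, 6502, 148105 and 4212 counts in chondrocytes and 4, 1, 1, 35 and 0 in dermal fibroblasts. Likeness here is the difference in log2 fold over 2 libraries, with counts under 3 set to 3. That floor set the folds of *Epyc*, *Mfi2* and *Ucma*. For *Epyc* the fold was 2529 with the floor and 7588 as the plain ratio. Such folds rest on the few dermal counts, and the interval for *Susd5* ran from 1111-fold to 10441-fold.

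Annotated genes overlap several of the chains, and whether the counting used the strand is not given in the sources used here. *Nt5dc1* spans all 7105 bases of *Col10a1* and had 200 and 233 counts in chondrocytes and skin cells, a fold of 0.882 (interval 0.726 to 1.07). *Tcfl5* shares 237 bases with the end of *Col9a3* and had 89 and 86 counts, a fold of 1.06 (interval 0.781 to 1.45). *Mir455*, a microRNA gene inside *Col27a1*, had 0 counts in both libraries. *Gm46536* and *Gm52743*, long noncoding RNA genes, share 6264 bases with *Col2a1* and 8902 bases with *Col27a1*. Neither had a row in the deposited counts. The counts of *Nt5dc1* and *Tcfl5* in chondrocytes were 1.93% and 0.198% of those of the collagen chain each overlaps.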

How the data were processed

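RNA-Seq covered primary rib chondrocytes and primary dermal fibroblasts of newborn mice, with 1 library each. Per the labels and methods, 75 bp single-end reads were mapped to mm10 with TopHat2 2.0.13, Bowtie2 2.2.3 and SAMtools 0.1.19, with base calling in CASAVA 1.8.2. The authors deposited raw counts of reads for every gene symbol. The counting program, its annotation and its strand setting are not given in the sources used here. Both columns of counts were matched to a sample, and 27 symbols had been turned into dates and were not named.

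Scaling factors were computed with edgeR 4.0.16 (TMM) in R 4.3.3, since the methods name no scaling, and gave 1.03 for the factor of chondrocyte over dermal fibroblast counts. Folds and intervals were computed with Python 3.11.15, scipy 1.17.1 and pandas 2.3.3. Before a fold, counts under 3 were raised to 3, except that a gene with 1 to 3 counts that is described singly is given by its plain ratio. A gene was counted where the fold was over 2. The libraries had no molecular identifiers, so reads are not independent molecules and intervals and floors cover counting error only. Depth was 18788599 and 17563724 counts. Transcript lengths came from GENCODE vM1 (NCBIM37), from which no coordinate was used, and positions and start regions from RefSeq tables of GRCm38.p6. The calculations were tested on simulated counts.

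The collagen chains and the 15 gene lists were chosen with earlier results of these data known. The genes named were the 8 chains, the type I, III and V chains, *Sox9*, *Sox5*, *Sox6*, *Actb*, the 3 most abundant members of each list, genes overlapping a chain, and the 5 genes nearest the chains' median fold. Others are marked as named after their values were seen, apart from list members given only because they were at 0. Alternatives in scaling, floor, filter, threshold and length were computed. With 1 library per cell type no library could be left out.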

Additional observations from a re-analysis of the deposited data

How the results depend on the processing

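All 8 chains stayed over 2-fold higher in chondrocytes under each scaling, floor, filter and threshold tried. Of 72 alternative folds of single chains, 66 lay within the counting interval and 6 outside it. Part of the 66 could not differ, since the filter left every fold unchanged. The interval of *Col2a1* has no upper bound, so no larger fold of that gene could lie outside it. The other floors changed only *Col2a1*, *Col9a1* and *Col10a1*. Relative to TMM, total counts shifted every log2 fold by -0.14 and *Actb* by 0.12, and over the scalings *Col11a1* ranged from 236 to 282 and *Col27a1* from 24.7 to 29.5. Where dermal counts were 3 or fewer the fold moved with the floor. Over the floors and the pseudocount, *Col2a1* lay between 148630 and 1.49e+06, *Col9a1* between 9521 and 95210, and *Col10a1* between 1066 and 3553. Of the alternative median log2 folds of the lists, 117 lay within counting error, 17 moved beyond it and 0 changed sign, and the erythroid list had no gene left with a minimum of 10 counts. Over all genes, 2876 were over 2-fold higher in chondrocytes with a pseudocount of 1, which adds genes with few counts. With a 4-fold threshold, 713 were higher in chondrocytes and 929 in dermal fibroblasts. With the lower bound of the interval over 2, these were 1041 and 1546. The share of collagen counts held by the 8 chains was 87.0% and 0.0865% per kilobase, and 90.2% and 0.304% without *Col1a1*, *Col1a2* and *Col3a1*, in chondrocytes and dermal fibroblasts.

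Chain ratios in chondrocytes moved with the length used. The union of all annotated exons was added after seeing the data, and with it the ratio of *Col9a2* to *Col9a3* turned to 1.15, where *Col9a3* has a longer union than transcript. With coding length, with no length correction and with all exons, the other values were as follows. *Col9a2* to *Col9a3* was 0.914 with coding length and 0.923 with none. *Col9a1* to *Col9a3* was 2.06 with none and 1.55 with all exons. *Col9a1* to *Col9a2* was 1.67, 2.23 and 1.35, *Col11a1* to *Col11a2* was 1.92, 1.99 and 1.41, *Col2a1* to *Col11a1* was 8.29, 6.83 and 10.9, and *Col2a1* to *Col11a2* was 15.9, 13.6 and 15.4. No paired analysis was possible because there was 1 library on each side and no test was made, and for the same reason no library was left out. Depth limits the dermal levels of *Col2a1*, *Col9a1* and *Col10a1*, which rest on 0, 1 and 3 counts.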
